A study of Homo sapiens with 2 samples.

Results

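The RBMS3 sites described here are those in the transcripts of 10 genes that make or carry out the microRNA pathway: AGO1, AGO2, AGO3, AGO4, TNRC6A, TNRC6B, TNRC6C, DICER1, DROSHA and XPO5. A site was counted as a member when its deleted base lay inside one of these genes on the gene's own strand (GENCODE release 44, hg38), which gave 22 of the 27706 sites in the list. Sites were assigned to the genes by gene names and positions only. The genes themselves were chosen with earlier results of these data known. The sites come from MDA-MB-231, an established human triple-negative breast cancer line, in which RBMS3 carrying a FLAG tag was stably expressed from a lentiviral vector and mapped by CLIP-seq. Cells were crosslinked with ultraviolet light (254 nm, 400 mJ/cm2), the tagged protein was recovered with beads against FLAG, and the bound RNA was tailed with A, captured and primed with oligo(dT), and sequenced. There was 1 group with 2 biological replicates. The second replicate carries another line number, MDA-MB-232, in its source label. The vector adds RBMS3 to what the cells already make, and only the tagged protein was recovered. The list was called on both replicates together, so no value below has a replicate error, and no second group exists to test against. Among markers of the line, VIM, CD44, AXL and EGFR had 14, 30, 6 and 23 sites, whereas ESR1, PGR and CDH1 had none and EPCAM had 1, with 20 of 20 tags. A site is no measure of expression.

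In the microRNA pathway, DROSHA cuts the primary transcript in the nucleus, XPO5 (exportin 5) carries the resulting hairpin to the cytoplasm, and DICER1 cuts it to a short duplex. One strand is loaded into an Argonaute protein (AGO1 to AGO4), which pairs with target mRNAs, most often in their 3′UTRs. The TNRC6 proteins, also called GW182, bind Argonaute and recruit the deadenylases that shorten the poly(A) tail of the target. The transcripts of these proteins are themselves mRNAs with 3′UTRs, most of them long.

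The 3 TNRC6 genes held 12 of the 22 sites, DROSHA, XPO5 and DICER1 held 7, and the 4 Argonaute genes held 3. A tag is a unique sequenced RNA fragment, and each site is given by its covering tags and by how many of them lack a base there, which the method reads as the crosslinked base. The transcript around 11 sites is shown because the base that was skipped and the run it lies in differ among these sites. Each line has 14 nt on either side of the deleted base, which is letter 15, on the transcript strand. Capitals mark the run of identical bases in which the deletion lies. The run of 16 A at the second TNRC6B site extends past its line. The other runs of A measured below start beyond the printed lines. A deletion cannot be placed within such a run, and the list puts it at the lowest coordinate.
DICER1, chr14:95086262-95086290, minus strand: ttagttgTTTTTTTTgtaataattgtagc
DICER1, chr14:95086221-95086249, minus strand: caataaagttatcgTctgttcactttgtg
XPO5, chr6:43522330-43522358, minus strand: taaaaatctcagTTTcgtacagaaaggga
DROSHA, chr5:31400490-31400518, minus strand: aggcaaaacttcTTTgtaaaacaaatctg
TNRC6A, chr16:24824705-24824733, plus strand: tttgtttttctattCCtgtcccaaatcaa
TNRC6A, chr16:24825430-24825458, plus strand: taataaaccatgacTTTTTggctgctcaa
TNRC6B, chr22:40335422-40335450, plus strand: gcattttatgtgtaTTTTTTgccatagca
TNRC6B, chr22:40335464-40335492, plus strand: tcatgctggatttcAAAAAAAAAAAAAAA
TNRC6C, chr17:78106020-78106048, plus strand: gcaccatttttccaTTTggaatataaagt
TNRC6C, chr17:78106824-78106852, plus strand: acttgtgcattacaTTTTTTTaattagct
TNRC6C, chr17:78107429-78107457, plus strand: ttaataaattgcaaTTTTTTTcttggctg

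A site was present in 8 of the 10 genes. Of all 20046 protein-coding genes, 37.6% had a site on their own strand. In the 3′UTR, 7 of the 10 genes had a site, beside 31.8% of all genes. A 3′UTR site with deletions in under 30% of its tags was present in 6 of the 10, beside 27.6%. The background counts genes that are not expressed in these cells, so the shares are given side by side without a test. AGO3 and AGO4 had no site. No site lay on the opposite strand of any of the 10 genes, and each of the 22 positions lay in 1 gene only on its strand.

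At 11 sites the deletion was in under 30% of the tags, with a median of 1183 tags (range 300 to 3718), a median of 57 deletions (range 37 to 161) and a median percentage of 7.29% (range 1.32 to 14.7%). At the other 11 it was in 39.7 to 100% of the tags, with a median of 13 tags (range 8 to 58) and of 11 deletions (range 7 to 25). Sites of the list at 30% or more had similar medians, 16 tags and 14 deletions. In the whole list, 70.1% of sites were under 30%, with medians of 6180 tags and 1.61%. The members under 30% had fewer tags. Among the 6512 sites of the list that were under 30% and had 300 to 3718 tags, the range of these members, the median percentage was 3.65% and the median number of deletions was 56. Their median of 1869 tags was above the 1183 of the members, so the percentages are not matched for depth. The lowest number of tags at any listed site under 30% was 110, and no low percentage is listed where a transcript was more thinly covered.

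**Figure D1:**
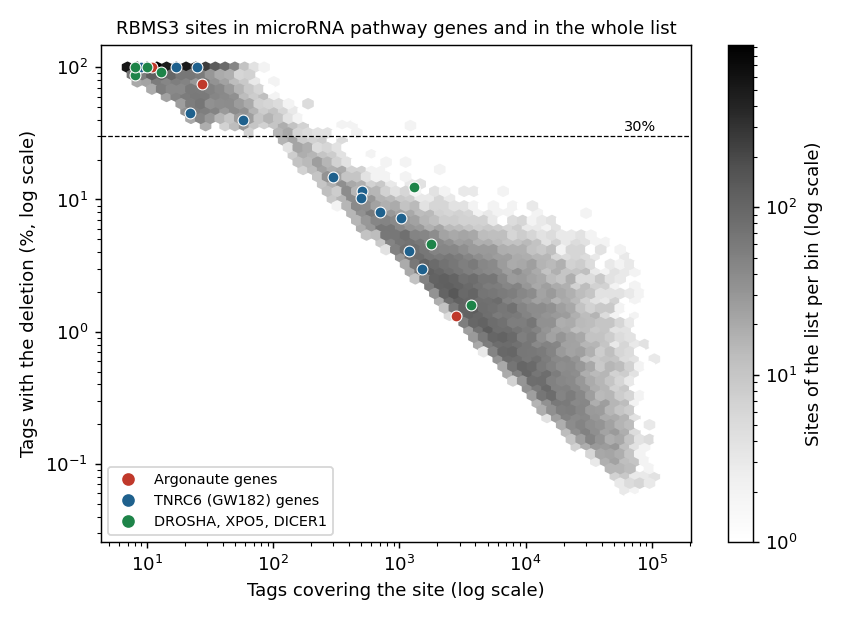
Deletion percentage (vertical, log scale) against the number of tags covering a site (horizontal, log scale) for the 27706 sites of the list (grey bins, shaded by the number of sites) and the 22 sites in microRNA pathway genes (points, coloured by role). The members fall into 11 sites below the dashed line at 30%, with 300 to 3718 tags, and 11 above it, with 8 to 58 tags.

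All 11 sites under 30% were in 3′UTRs, compared with 95.2% of the 19426 such sites in the list. Of the 11 at 30% or more, 6 were in 3′UTRs, 4 in introns and 1 in coding sequence. In the list, 33.1% of the sites at 30% or more were in 3′UTRs. In total 17 of 22 sites (77.3%, 95% Wilson interval 56.6 to 89.9%) were in 3′UTRs, compared with 76.6% of the list. The interval covers counting error only, and sites of a gene are not independent.

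DICER1 had the strongest site of the group. At position 95086276 (chromosome 14, minus strand, 3′UTR in exon 27), 161 of 1298 tags carried the deletion (12.4%, 95% Wilson interval 10.7 to 14.3%). The number of deletions was at or above that of 88.0% of the sites in the list, although the number of tags was at or above that of only 38.8%. The deleted base lies in a run of 8 T (U in the RNA), 32 nt from an annotated transcript end. Its window of 25 nt on each side held neither AATAAA nor the variant ATTAAA, but held AGTAAA, another variant, starting 17 nt after the deletion. These hexamers are forms of the poly(A) signal, which directs cleavage of the mRNA. In the same cluster, 41 nt downstream at position 95086235, a T was missing from 59 of 3718 tags (1.59%, interval 1.23 to 2.04%). This base is 7 nt from the end of the transcript, and AATAAA starts 13 nt before it, as the printed line shows. The second site had more tags and fewer deletions than the first. A deletion at any base of the run of 8 T is listed at 1 position, whereas the second site is a single T. The 2 percentages were not tested against each other. Another DICER1 site in the 3′UTR, at 95088162, had 12 of 13 tags with the deletion and lay 1658 nt from the next annotated end. Among 6372 genes ranked by the deletions at their strongest 3′UTR site, DICER1 was at rank 1741.

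XPO5 had 1 site in its 3′UTR of 1537 nt. At position 43522344 (chromosome 6, minus strand, exon 32), 82 of 1793 tags carried the deletion (4.57%, interval 3.70 to 5.64%). It lay in a run of 3 T, 10 nt from the transcript end. The 3′UTR of XPO5 holds no AATAAA. The window held AGTAAA, a variant of the signal, starting 16 nt before the deletion. The other XPO5 site was in intron 13, at position 43554451, where all of 8 tags carried the deletion.

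DROSHA had 2 sites, both thinly covered. At position 31400504 (chromosome 5, minus strand, 3′UTR in exon 36), 7 of 8 tags carried the deletion (87.5%, interval 52.9 to 97.8%). The deleted base is in a run of 3 T, 7 nt from an annotated end, and AATAAA starts 19 nt before it. The place on the transcript resembles that of the XPO5 and DICER1 sites, whereas the number of tags was 8 against 1793 and 3718. In intron 20, at position 31462063, all of 10 tags carried a deletion in a run of 5 G, the only deleted G among the 22 sites. With 8 and 10 tags the intervals of the DROSHA sites are wide, and that of the intronic site runs from 72.2 to 100%.

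The 3 TNRC6 genes all had sites, and 7 of their 12 sites were under 30%. TNRC6A (chromosome 16, plus strand) had 2 sites, both in the 3′UTR of 2414 nt. At position 24824719, 48 of 1183 tags carried a deleted C (4.06%, interval 3.07 to 5.34%), the only deleted C in the group. At position 24825444, 59 of 505 tags carried a deletion in a run of 5 T (11.7%, interval 9.17 to 14.8%), and AATAAA starts 13 nt before it. The first lay 67 nt before an annotated end in the middle of the 3′UTR, and the second lay 774 nt from the end of the representative transcript. The 2 percentages were not tested against each other.

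TNRC6B (chromosome 22, plus strand) has a 3′UTR of 12570 nt, and its 2 sites under 30% were together near the distal part of it, 42 nt apart. At position 40335436, 45 of 1519 tags carried a deletion in a run of 6 T (2.96%, interval 2.22 to 3.94%). At position 40335478, 75 of 1029 tags carried a deletion in a run of 16 A (7.29%, interval 5.85 to 9.04%), 329 nt from the nearest annotated end. Neither window held AATAAA or ATTAAA. The other TNRC6B site, at position 40331496, had the deletion in all of 25 tags and lay 4311 nt from an end.

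TNRC6C (chromosome 17, plus strand) had 7 sites, the most of the 10 genes, in 7 separate clusters. The 3 sites under 30% were spread over its 3′UTR of 3980 nt, at 1192, 1996 and 2601 nt from its start with the stop codon counted. At position 78106034, 51 of 494 tags carried a deletion in a run of 3 T (10.3%, interval 7.94 to 13.3%), 3 nt from an annotated end. At position 78106838, 57 of 706 tags carried a deletion in a run of 7 T (8.07%, interval 6.28 to 10.3%). At position 78107443, 44 of 300 tags carried a deletion in a run of 7 T (14.7%, interval 11.1 to 19.1%). The last 2 lay 1984 and 1379 nt from the nearest annotated end. The 3 intervals cover counting error only, and the percentages were not tested against each other. The end of the representative transcript was not where TNRC6C was covered most, because the site there, at position 78108787 and 35 nt from the end, had 10 of 22 tags with the deletion (45.5%, interval 26.9 to 65.3%). The remaining sites were at 78105968 in the 3′UTR (23 of 58 tags), at 78050339 in the coding sequence of exon 5 (17 of 17 tags) and at 78040531 in intron 4 (9 of 9 tags).

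**Figure D2:**
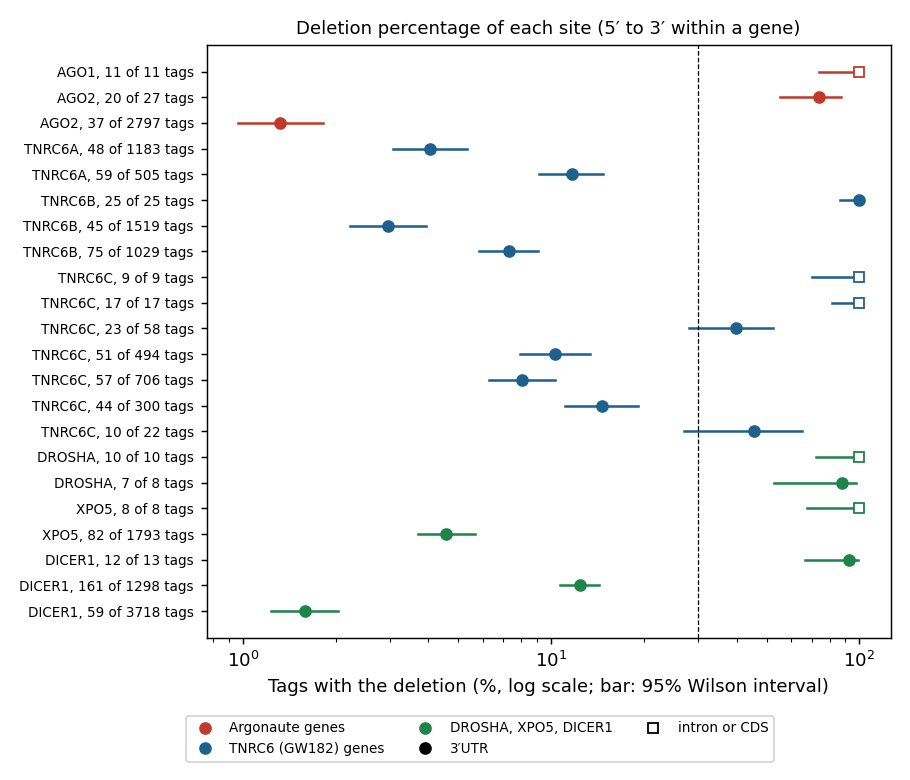
Percentage of tags with the deletion (log scale) at each of the 22 sites, with bars for the 95% Wilson interval, filled circles for 3′UTR sites and open squares for sites in introns or coding sequence. The dashed line marks 30%. Sites with 300 or more tags lie between 1.32 and 14.7%, with bars from 0.961 to 19.1%, and the 5 sites outside 3′UTRs are all at 100% with 8 to 17 tags.

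Only AGO2 among the 4 Argonaute genes had a site in its 3′UTR. AGO2 encodes the Argonaute protein that can cut its target RNA. The gene lies on chromosome 8 from 140520156 to 140635633 on the minus strand, and its 3′UTR is annotated at 11891 nt. A T was missing from 37 of 2797 tags at position 140520166 (1.32%, interval 0.961 to 1.82%), 10 nt before the transcript end. This was the lowest percentage and the fewest deletions among the 11 sites under 30%, although only DICER1 had a site with more tags. No listed site under 30% had fewer than 32 deletions, so the AGO2 site is near the lowest count listed. The window held both AATAAA, 11 nt before the deletion, and ATTAAA, 15 nt before it. The other site, at position 140520403 and 247 nt before the end, had a deletion in a run of 5 T in 20 of 27 tags (74.1%, interval 55.3 to 86.8%).

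AGO4, AGO1 and AGO3 lie next to each other on the plus strand of chromosome 1, from 35808016 to 36072500. In these 264485 nt the list had 1 site on the plus strand and none on the minus strand. It was in intron 11 of AGO1, at position 35906047, where all of 11 tags carried the deletion. The 3′UTRs of AGO1, AGO3 and AGO4 are annotated at 10928, 16758 and 4288 nt and hold 6, 20 and 4 copies of AATAAA, none with a listed site. The list gives no coverage where no site was called, so low expression and absence of binding cannot be told apart for these 3 genes.

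**Figure D3:**
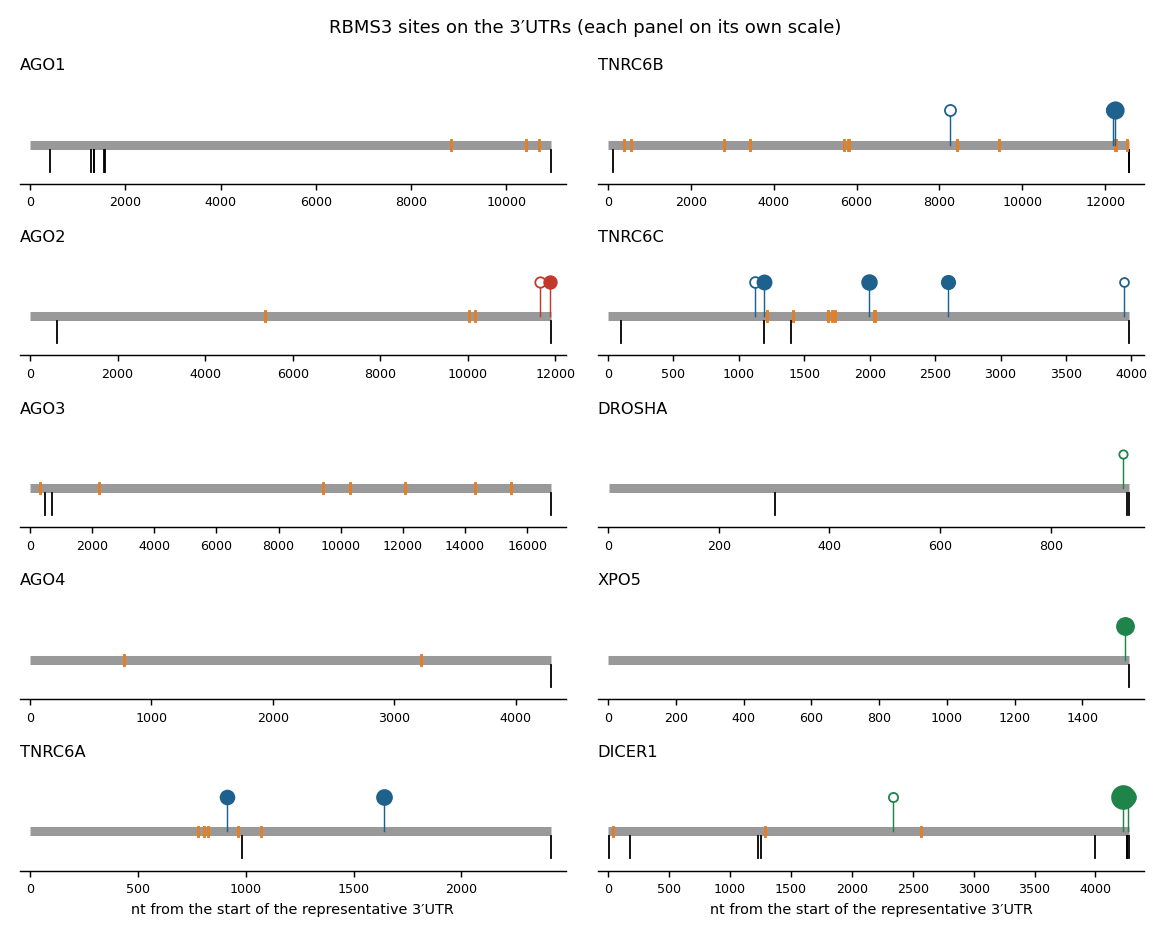
The representative 3′UTR of each gene (grey bar, nt from its start, each panel on its own scale), with annotated transcript ends (black ticks below), runs of 8 or more A (orange) and RBMS3 sites (circles, area by number of deletions, filled under 30% and open at 30% or more). Sites of AGO2, DROSHA and XPO5 sit within 247 nt of the distal end. DICER1 and TNRC6C have sites both near that end and inside the 3′UTR. Those of TNRC6B lie 329, 371 and 4311 nt before the nearest annotated end. Both TNRC6A sites are inside the 3′UTR, and AGO1, AGO3 and AGO4 have none.

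The position relative to transcript ends was read for the sites in 3′UTRs. Of all 17, 9 lay within 100 nt of an annotated end (52.9%, interval 31.0 to 73.8%), compared with 65.8% of 21230 in the list. Of the 11 sites under 30%, 6 lay within 100 nt of an annotated end (54.5%, interval 28.01 to 78.7%), compared with 72.6% of 18490 such 3′UTR sites in the list. All 4 of these sites in AGO2, XPO5 and DICER1 were within 100 nt, at 7 to 32 nt. In the TNRC6 genes 2 of 7 were, at 3 and 67 nt, and the other 5 lay 329 to 1984 nt from an end. This contrast is limited to sites under 30%. The 3′UTR sites at 30% or more lay at 247 nt in AGO2, 1658 nt in DICER1, 7 nt in DROSHA, 4311 nt in TNRC6B, and 35 and 69 nt in TNRC6C. The distance had a median of 67 nt for the 11 sites and 32 nt for the list. No test was made of these shares.

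Because the libraries were primed with oligo(dT), the runs of A that the genome encodes downstream of each site were also measured. The minimum of 8 A was chosen after the values were seen. Within 100 nt downstream, 5 of the 11 sites under 30% had such a run (45.5%, interval 21.3 to 72.0%), beside 7.43% of the 19426 sites under 30% in the list. All 5 were in TNRC6 genes, out of 7 sites there, and 0 of the 4 sites in AGO2, XPO5 and DICER1 had one. The longest run was 5 A or shorter at those 4 sites. Among sites at 30% or more, the XPO5 site in intron 13 had a run of 14 A beginning 15 nt after it. The TNRC6C site at 78105968 had a run of 14 A beginning 88 nt after it. In TNRC6A the run held 17 A (24824770 to 24824786), began 51 nt after the site at 24824719, and its last base was the annotated end. In TNRC6B the run of 16 A (40335478 to 40335493) began 42 nt after the first site and contained the second. These sites of 1 cluster share the run, so the interval above does not rest on independent cases. In TNRC6C a run of 14 A (78106056 to 78106069) began 22 nt after the site at 78106034, and a run of 16 A (78106885 to 78106900) began 47 nt after the site at 78106838. The run of 14 A lies beyond the annotated end at 78106037, so a transcript that ends there lacks it. The sites at 24825444 in TNRC6A and 78107443 in TNRC6C had no run longer than 4 A, and both had AATAAA 12 or 13 nt before the deletion. RNA with such a run can pair with oligo(dT) as a poly(A) tail does, and the part of this in the sites was not tested. The 10 representative 3′UTRs held 42 runs of 8 or more A, of which 6 had a site within 100 nt upstream or inside them. Of the 12 runs of 12 or more A, 4 had one, all in TNRC6 genes. TNRC6A, TNRC6B and TNRC6C held 5, 12 and 7 of the 42 runs, and 1, 3 and 4 of the 12 longer ones. The rest of the 12 were in AGO3 (3) and DICER1 (1). AGO2 and DICER1 held 3 each of the 42 runs, and DROSHA and XPO5 held 0. AGO1, AGO3 and AGO4, whose coverage is not known here, held 3, 7 and 2 of the 42 runs.

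**Figure D4:**
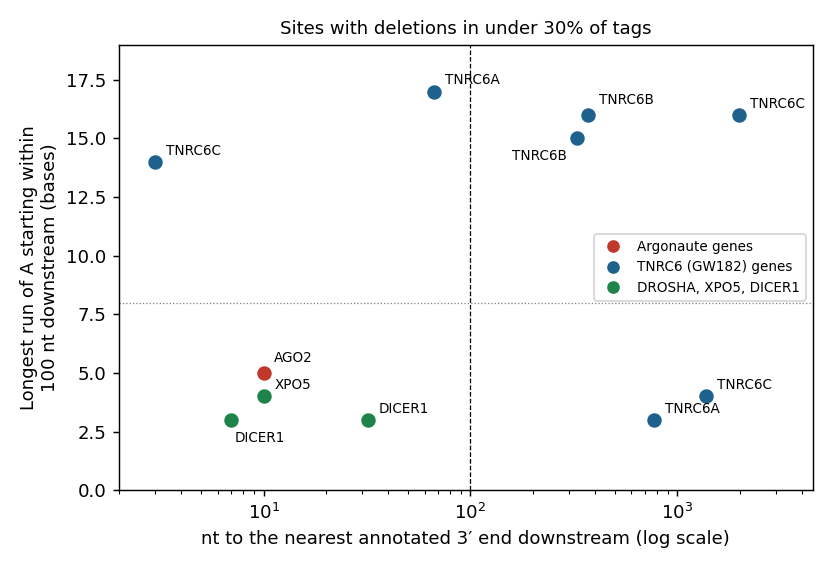
The longest run of A that starts within 100 nt downstream (vertical, bases) against the distance to the nearest annotated transcript end (horizontal, log scale) for the 11 sites with deletions in under 30% of tags. Dashed and dotted lines mark 100 nt and 8 A. The 4 sites of AGO2, XPO5 and DICER1 have runs of 3 to 5 A, and 5 of the 7 TNRC6 sites have runs of 14 to 17 A.

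T was the deleted base at 18 of 22 sites (81.8%, interval 61.5 to 92.7%), compared with 63.2% of the list. A was deleted at 2 sites and C and G at 1 each. At the 11 sites under 30%, the deletion fell in a run of 5 or more T at 5 (45.5%, interval 21.3 to 72.0%), beside 8.20% in the list. With a limit of 3 or more T the share was 63.6% (interval 35.4 to 84.8%), which covers the 45.2% of the list, so the gap depends on the limit, and 5 was chosen after values were seen. The sites in runs of 5 or more were 1 site in TNRC6A, 1 in TNRC6B, 2 in TNRC6C and the strongest DICER1 site. No control library was analysed here.

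The window around each site was then searched for sequence motifs. The AUA motif is a 7-base pattern of A, G or T, then A or T, then ATA, then A or T, then A. It was in the window of 6 of 22 sites on the transcript strand (27.3%, interval 13.2 to 48.2%) and of 1 on the other strand, compared with 46.8% and 22.9% in the list. AATAAA, which overlaps the pattern, was also in 6 windows (27.3%) on the transcript strand and in 3 on the other, against 46.4% and 10.9%. For 3′UTR sites under 30%, AATAAA was in 4 of 11 windows (36.4%, interval 15.2 to 64.6%) on the transcript strand, against 58.5% in the list. For 3′UTR sites at 30% or more it was in 2 of 6 (33.3%, interval 9.68 to 70.0%), against 12.9%. Both intervals cover the value of the list, so no difference is read from these few sites. ATTAAA was in 4 windows (18.2%) and in 1 on the other strand, against 15.1% and 8.84%. Any of the 11 poly(A) signal hexamers searched, AATAAA and ATTAAA included, was in 15 windows (68.2%, interval 47.3 to 83.6%) on the transcript strand, against 73.4%. An AUA match without AATAAA was left at only 2 sites (9.09%), both in TNRC6C, at 78106034 and 78108787, compared with 14.8% in the list. ATTTA, the core of AU-rich elements, was in 2 windows (9.09%) and in 7 on the other strand, and in 5545 and 8806 of the 27706 windows of the list. TGTANATA, the element read by Pumilio proteins, was in 0 windows and in 1 on the other strand, against 3.20% and 1.41%. A match is a description of the letters in the window and not a bound site.

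MicroRNAs of the miR-103 family are known to lower DICER1, so the match to their seed was also placed relative to the RBMS3 sites. Both share the seed (bases 2 to 8, in capitals, sequences from RefSeq, GRCh38.p14).
hsa-miR-103a-3p: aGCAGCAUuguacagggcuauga
hsa-miR-107: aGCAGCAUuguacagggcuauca

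The match ATGCTGC occurred 5 times in the DICER1 3′UTR, 5 times in that of AGO2, 3 times each in AGO1 and TNRC6B, 2 times in AGO4 and 1 time in AGO3. TNRC6A, TNRC6C, DROSHA and XPO5 had none. In DICER1 the nearest match (95086330 to 95086336) was centred 57 nt upstream of the strongest site, and in TNRC6B it was centred 51 nt downstream of the site with 25 of 25 tags. No window of 25 nt on each side held it on either strand, beside 0.263% of windows on the transcript strand and 0.209% on the other in the list. The match to the let-7 seed, CTACCTC, occurred 2 times in AGO2 and 1 time each in AGO1 and AGO3. It was in no window either, compared with 0.0975% and 0.0686% in the list.

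To place these genes within the wider pathway, 42 further genes that process, tail, export or carry out the work of microRNAs were read from the same list. Of these, 29 had a site and 27 had a 3′UTR site under 30%, the same measure that 6 of the 10 core genes met and 27.6% of all genes. The 27 had a median of 130 deletions at their strongest site (range 37 to 925), and the 6 core genes had a median of 67 (range 37 to 161). The 5 with the most deletions were PABPC1 (925 of 13536 tags, 6.83%), the cytoplasmic poly(A)-binding protein that TNRC6 proteins contact, ERH (906 of 43015 tags, 2.11%), which helps the Microprocessor with poor hairpins, XRN2 (799 of 8530 tags, 9.37%), a nuclear exonuclease, HSP90AB1 (754 of 26843 tags, 2.81%), a chaperone of the family that helps to load Argonaute, and DDX5 (745 of 16551 tags, 4.50%), a helicase found with DROSHA. All 5 strongest sites were in 3′UTRs, 7 to 36 nt from an end. DGCR8, the RNA-binding partner of DROSHA, had 1 site in a noncoding exon with 10 of 10 tags, and TUT7 had 1 in an intron with 7 of 7 tags. The 13 genes without a site included TARBP2 and PRKRA, the partners of DICER1, the deadenylase complex genes CNOT1, PAN2 and PAN3, and LIN28A and LIN28B. CNOT7, a catalytic deadenylase of the complex built on CNOT1, had 4 sites, the strongest with 98 of 3088 tags (3.17%). These numbers are not corrected for expression, and tags at the strongest sites ranged from 631 in HSPA8 to 43015 in ERH among the 27 genes.

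**Figure D5:**
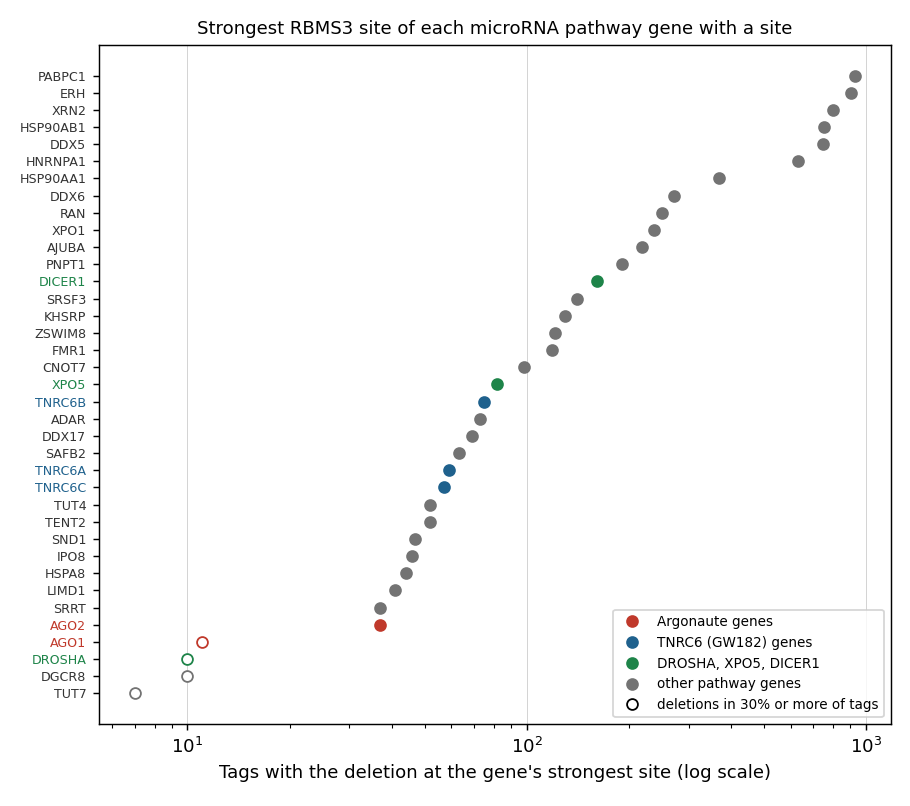
Number of tags with the deletion at the strongest site of each gene (log scale) for the 8 core genes (coloured by role) and the 29 further pathway genes (grey) that have a site. Open points mark strongest sites with deletions in 30% or more of tags. DICER1, at 161, is the highest of the core genes, and AGO1 and DROSHA lie below all genes with filled points.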

How the data were processed

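Both CLIP-seq libraries form 1 group. The authors appended molecular identifiers to the reads and used the CLIP Tool Kit to align them to hg38, keep unique tags, pool the replicates and call deletion sites at a false discovery rate under 10% and a fold above 10 (the fold is not defined further, and tool versions are not given in the sources used here). The deposited values are counts, not normalized: tags over each site and tags with the deletion. Each interval is 21 nt, and its centre was taken as the deleted base, counted from 1.

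The sites were placed on GENCODE release 44 (all transcripts, same strand, in the order 3′UTR, 5′UTR, coding sequence, other exon, intron), with the stop codon counted in the 3′UTR. Chromosome names and the base at each position came from the same build, hg38. The representative transcript is the one with the Ensembl canonical tag. Distances run to the nearest 3′ end of a transcript with a 3′UTR in the same gene. Same-strand neighbours up to 50 nt apart were joined into clusters. Motifs were searched 25 nt on each side on both strands. Percentages of tags have 95% Wilson intervals, which cover counting error only. Total depth per library was not analysed here. No test was made, because there is 1 pooled list and no second group, and shares are set beside those of the whole list. All 10 core genes are named, and of the 42 further genes the 5 with the most deletions at 1 site, with others named after their values were seen. The members, lists and measures were chosen with earlier results of these data known. Alternatives were filters on deletions, clusters, strand, gene bounds, transcripts and windows. The functions were tested on simulated data. Python 3.11.15, pysam 0.24.0, scipy 1.17.1, samtools 1.23.1 and matplotlib 3.10.9 were used.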

Additional observations from a re-analysis of the deposited data

How the results depend on the processing

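With at least 20 deletions per site, 14 sites were left, 100% of them in 3′UTRs and 78.6% with deletions in under 30% of tags. With at least 50 deletions, 7 sites in 5 genes were left, 100% in 3′UTRs and 100% under 30%. With sites under 30% only, 11 were left, 100% in 3′UTRs. AATAAA was within 10 nt of the deletion at 4.55% of sites and the AUA motif at 9.09%, and AUA matches without AATAAA were at 9.09%. These are 12 of the 45 values computed, and the other 33 stayed within 1.5 times the count, or within the 95% interval of the share or median. The median percentage of tags with the deletion is among the 33 only because its interval is wide: it was 27.2% over all 22 sites, 9.20%, 8.07% and 7.29% under the same 3 filters, and 42.6% with 1 site per cluster. The filters remove thinly covered sites by construction, and in the whole list 95.2% of the sites under 30% were in 3′UTRs. Ignoring strand or adding 1000 nt downstream changed neither the 22 sites nor the 8 genes. No paired analysis was possible because only pooled sites of a single group were analysed here, and for the same reason neither replicate could be left out. Depth limits the 11 sites at 30% or more, each with 58 tags or fewer.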
